A study of Drosophila melanogaster with 8 samples.

Results

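Mitochondrial ribosomal protein genes are nuclear genes whose products are imported into mitochondria, where they form the large and the small subunit of the ribosome that translates the few mRNAs of the mitochondrial genome. Those mRNAs encode core subunits of the respiratory chain, so the ribosome is needed wherever cells respire, and the ovary stocks the egg with maternal mitochondria. Many of the proteins have a counterpart in bacterial ribosomes, and the others are found in mitochondria alone. The genes were taken as those whose FlyBase symbol begins with mRpL or mRpS, and 71 of the 13776 genes in the tables met this rule, 47 of them mRpL and 24 mRpS. The rule used symbols alone, though it was chosen with earlier results of these data known. Symbols mRpS5 and mRpS34 had no matching gene ID and were not analysed here.

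The libraries were poly(A)+ RNA-seq of Drosophila melanogaster ovaries dissected from females aged 0 to 4 days, about 100 ovaries per library. Control libraries 1 and 2 came from the progeny of tj-Gal4 and #60000 (VDRC), while knockdown libraries 1 and 2 came from a cross of tj-Gal4 with HP1a RNAi flies. The driver tj-Gal4, which both groups carry, acts in somatic cells of the ovary, whereas the RNA comes from whole ovaries with their germline. Since each group had its own partner line for the driver, line and knockdown cannot be told apart, and in such bulk samples fewer cells of a type and less RNA per cell cannot be told apart.

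Deposited expected counts summed to between 18671653 and 38330979 per library. CPM here is a count scaled to the size of its library times a TMM factor, which allows for differences in composition. The transcript of HP1a itself was at 253 and 228 CPM in the controls against 224 and 236 CPM under knockdown. These ranges overlap (log2 fold change -0.06, adjusted p = 0.677, edgeR). As a share of all counts, without that factor, HP1a was at 0.0233% and 0.0211% in the controls. Under knockdown its share was higher in both libraries, at 0.0248% and 0.0251%. In TPM (a level per length of transcript, with all libraries set to one total) it was at 303 and 285 in the controls and at 402 and 406 under knockdown, higher by 0.46 on the log2(TPM + 1) scale (limma adjusted p = 0.0123), where the median of all tested genes was 0.50. All 21 germline and 13 follicle cell markers matched were detected. Follicle cell markers summed to 3965 and 5388 TPM in the controls but 651 and 1250 TPM under knockdown, and 12 of 13 fell. Germline markers summed to 4237 and 4638 TPM in the controls but 6290 and 6404 TPM under knockdown. With TMM scaling of counts the same list went the other way, from 12296 and 12540 CPM to 11174 and 11853 CPM. In that fit 6 of 21 were called higher and 2 lower (aub and pum). As a share of all counts, without TMM, the list was higher under knockdown, at 1.24% and 1.26% against 1.13% and 1.16% in the controls. Markers of late egg chambers summed to 25380 and 81670 TPM in control 1 and control 2, and to 3414 and 26600 TPM in knockdown 1 and knockdown 2. Hemocyte markers were higher under knockdown, at 210 and 197 TPM against 58.4 and 80.0 TPM in the controls, with all 5 above 0 in fitted log2 fold change and 2 called higher (crq and Pxn). Muscle markers summed to 829 and 374 TPM in control 1 and control 2, and to 524 and 427 TPM in knockdown 1 and knockdown 2. All 5 were below 0 in fitted log2 fold change, and 1 was called lower (bt). Neuron markers ran from 5.92 to 8.11 TPM over the libraries. Fat body and testis markers stayed at or below 1.71 and 0.903 TPM. The part of these shifts in the results below was not tested.

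All 71 genes were expressed and passed the filter on low counts, with 137 to 4371 counts per gene and library. The median gene stood at 94.0 and 81.4 TPM in the controls, and at 81.0 and 83.1 TPM under knockdown. Between 74.2% and 86.5% of all tested genes lay below these medians in the same library. The genes encode proteins of one particle, yet their mRNA levels were unequal: the highest exceeded the lowest 4.92-fold in control 1, 5.46-fold in control 2, 7.54-fold in knockdown 1 and 6.86-fold in knockdown 2. The range without the extremes was narrower, with a 90th percentile 2.28 to 2.45 times the 10th.

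The top of the order belonged to mRpL12, the homologue of the bacterial stalk protein that recruits translation factors, and known in Drosophila to be needed for growth driven by Cyclin D and Cdk4. Its level was 271 and 278 TPM in the controls, and 309 and 294 TPM under knockdown. It was first in both groups and held 3.80% to 4.81% of all TPM of the 71 genes. The next in mean level were mRpL42, a mitochondria-specific protein of the large subunit, at 183, 170, 171 and 174 TPM in control 1, control 2, knockdown 1 and knockdown 2, and mRpS14, of the head of the small subunit, at 183, 163, 164 and 182 TPM. Their levels overlapped between groups and with each other, so their order is not resolved. Small-subunit gene mRpS16 and large-subunit gene mRpL34 completed the 5 highest. The value of mRpL34 (192, 187, 118 and 147 TPM) rests on only 137 to 349 counts. Its effective length was only 78 nt, so each read weighs more in TPM than in a longer gene.

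At the bottom were mRpL41 (60.4, 50.8, 41.0 and 45.2 TPM in the same order of libraries) and mRpL32 (67.7, 51.1, 41.5 and 44.7 TPM). The other low genes were mRpS31, mRpL43 and mRpL48, and mRpL48 showed no separation of the groups on this scale, at 55.0, 58.1, 52.5 and 58.2 TPM. The order of levels was close to that of the partner library within each group (Spearman's rho across the 71 genes 0.926 between controls and 0.954 between knockdown libraries) and less so across groups (0.643 to 0.868). Genes are not independent replicates, so these values only describe the order. Of the 10 genes with the highest mean TPM in the controls, 6 were also among the 10 highest in the knockdown libraries.

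**Figure D1:**
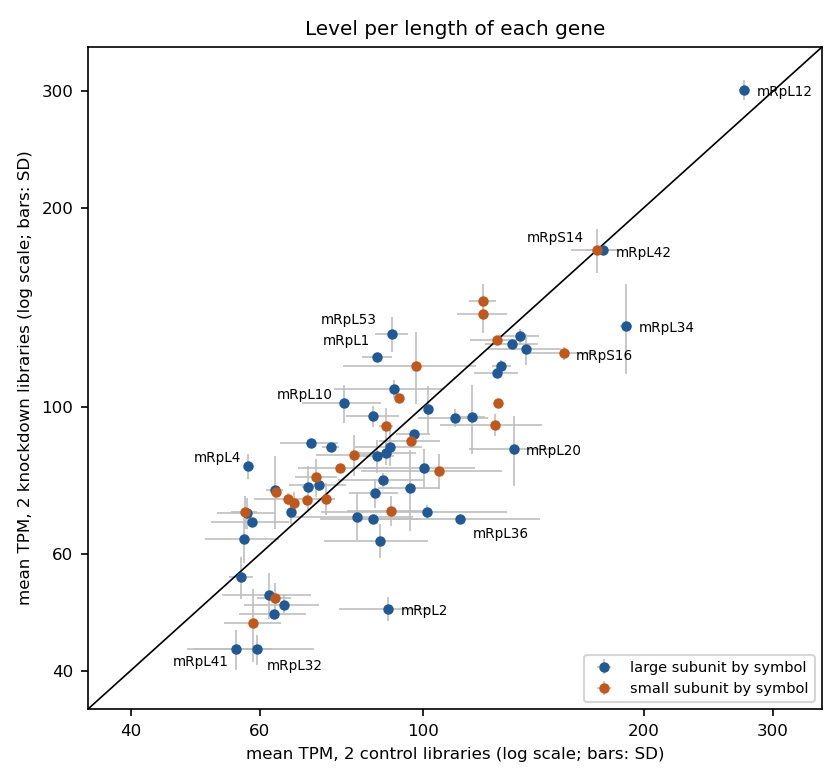
Mean TPM of each gene in the 2 control libraries (horizontal) and the 2 knockdown libraries (vertical), both on log axes, with bars for the SD of 2 libraries and the diagonal marking equal levels. mRpL12 stands apart at the top, mRpL2 and mRpL36 lie farthest below the diagonal, and mRpL53, mRpL1 and mRpL4 lie above it.

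Transcripts of the mitochondrial ribosome were lower in the knockdown libraries. Of 71 genes, 42 (59.2%) fell and 0 rose at an adjusted p of 0.05 (edgeR quasi-likelihood test over 8798 genes), where 16.1% of all tested genes fell and 11.8% rose. The median log2 fold change was -0.58, a 1.50-fold decrease, against 0.02 for all tested genes. All 71 fitted values were below 0, as were 49.0% of those of all tested genes, although on the deposited TPM scale, where the median of all genes was 0.50, only 41 of 71 were. The values ran from -1.39 to -0.03 with quartiles of -0.84 and -0.38, and standard errors of 0.10 to 0.25. DESeq2 called 42 lower and 0 higher, against 17.3% and 17.9% of the genes it tested.

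The separation was visible in single libraries. For 68 of 71 genes both knockdown libraries lay below both controls in scaled CPM, against 37.7% of all tested genes. The 3 that overlapped were mRpL10, mRpL4 and mRpL53. Summed over the 71 genes, control 1 and control 2 held 3996 and 3503 CPM, and knockdown 1 and knockdown 2 held 2502 and 2598 CPM. Thus the knockdown libraries lay close together, and the controls differed more: 65 genes were higher in control 1 than in control 2, by a median log2 difference of 0.21, against a median of 0.00062 over all tested genes. Between the knockdown libraries the median log2 difference was -0.068, with 51 genes lower in knockdown 1. Late egg chamber and muscle markers also differed between the controls, as given above, the former higher in control 2 and the latter in control 1. Their part in this difference was not tested.

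**Figure D2:**
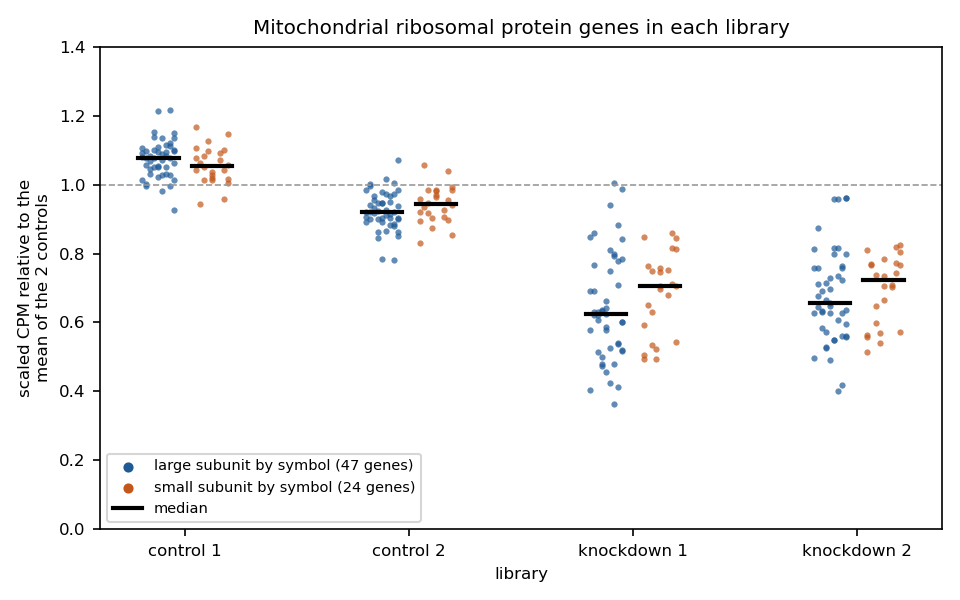
Scaled CPM of each gene in each library (horizontal) relative to the mean of the 2 controls (vertical, from 0), with large-subunit and small-subunit genes in 2 colours and black bars for medians. The knockdown points lie mostly below both sets of control points, except for mRpL10, mRpL4 and mRpL53, and control 1 lies mostly above control 2.

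The number of calls rested on having both knockdown libraries. Without knockdown 1, 0 of the 71 genes fell at the adjusted threshold, where 2.09% of all tested genes fell and 0.317% rose. Without knockdown 2, only 1 of the 71 fell at that threshold, where 2.66% of all tested genes fell and 0.987% rose. The median of the 71 genes was -0.51 and -0.64 in these fits, in which the lone knockdown library is assumed to vary like the controls.

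The largest falls belonged to the large subunit. mRpL2, the homologue of a bacterial protein beside the peptidyl transferase centre, stood at 83.7 and 66.3 CPM in the controls (SD 12.3, n = 2), against 27.3 and 30.1 CPM under knockdown (SD 1.92, n = 2). The controls were well above the knockdown libraries, a 2.61-fold fall (log2 fold change -1.39, SE 0.17, adjusted p = 0.0217). mRpL36, a very small protein with a bacterial counterpart, fell 2.40-fold, from 35.7 and 22.9 CPM to 12.1 and 12.3 CPM (SE 0.25 on the log2 scale, adjusted p = 0.0289). The knockdown libraries were nearly equal, and its controls differed 1.56-fold, the widest ratio between controls of all 71 genes. mRpL20, whose bacterial counterpart acts early in assembly of the large subunit, fell 2.22-fold, from 55.0 and 44.3 CPM to 20.0 and 24.7 CPM (adjusted p = 0.0239). mRpL51, a mitochondria-specific protein, went from 49.5 and 32.0 CPM to 18.6 and 20.0 CPM, and fell 2.11-fold (adjusted p = 0.0342). Its groups did not overlap, but its controls differed 1.55-fold.

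mRpL34 was the fifth gene to fall by more than 2-fold, from 16.0 and 15.2 CPM to 6.63 and 8.56 CPM (2.05-fold, adjusted p = 0.0348), and its knockdown libraries showed the widest ratio of all 71 genes, 1.29. mRpL32 fell 1.99-fold, from 33.0 and 24.2 CPM to 13.5 and 15.1 CPM (adjusted p = 0.0313). mRpL23, whose bacterial counterpart sits at the exit of the polypeptide tunnel, also fell 1.99-fold, from 34.3 and 26.1 CPM to 14.5 and 15.9 CPM (adjusted p = 0.0287). In both, every knockdown value lay below every control value. mRpL44, which in mammals carries a fold like that of ribonuclease III, fell 1.84-fold but differed 1.27-fold between the knockdown libraries (42.7 and 54.0 CPM). On the TPM scale the calls of mRpL51, mRpL32 and mRpL44 were lost (limma adjusted p = 0.0870, 0.0748 and 0.0903).

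In the small subunit the largest falls were those of mRpS25 (1.93-fold, log2 fold change -0.95, SE 0.17, adjusted p = 0.0267), mRpS18C and mRpS22. mRpS25 and mRpS22 are mitochondria-specific, and mRpS18C is a homologue of a bacterial protein of the platform. mRpS25 stood at 58.6, 45.4, 25.7 and 28.2 CPM in control 1, control 2, knockdown 1 and knockdown 2, and mRpS22 at 116, 93.5, 52.7 and 58.8 CPM (1.87-fold, adjusted p = 0.0243). In neither gene did the groups overlap. mRpS18C (1.89-fold, adjusted p = 0.0370) went from 36.3 and 25.9 CPM to 15.4 and 17.4 CPM, with a ratio of 1.40 between its controls. mRpS16 fell 1.83-fold (adjusted p = 0.0267), mRpS31 1.81-fold (adjusted p = 0.0264) and mRpS6 1.79-fold (adjusted p = 0.0238). In mRpS6 the libraries of a group agreed closely, at 39.6 and 38.4 CPM in the controls, and 21.2 and 22.3 CPM under knockdown. Calls of mRpS25, mRpS22, mRpS18C and mRpS31 were lost on the TPM scale (limma adjusted p = 0.0544, 0.0611, 0.119 and 0.119). That of mRpS18C was also lost with library size alone (edgeR adjusted p = 0.0502).

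At the other end, 4 genes of the large subunit were nearly level in scaled counts. mRpL53, a mitochondria-specific protein, had 58.5 and 52.8 CPM in the controls, and 56.0 and 53.3 CPM under knockdown (log2 fold change -0.03, SE 0.13, adjusted p = 0.885). mRpL4, which in bacteria lines the polypeptide tunnel, stood at 47.3 and 45.9 CPM against 46.1 and 44.9 CPM (-0.04, SE 0.12, adjusted p = 0.833). mRpL1, of the mobile stalk at the exit site for tRNA, stood at 87.3 and 90.5 CPM against 83.7 and 85.2 CPM (-0.07, SE 0.11, adjusted p = 0.606), and mRpL10, the base of the factor-binding stalk, at 50.0 and 57.8 CPM against 45.3 and 51.7 CPM (-0.15, SE 0.15, adjusted p = 0.456). These differences were of the size of their standard errors or smaller, and a missed threshold does not show that the levels were equal.

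The most abundant gene, mRpL12, fell 1.31-fold, at 142 and 141 CPM in the controls, and 109 and 107 CPM under knockdown (log2 fold change -0.39, SE 0.10, adjusted p = 0.0462). This call was lost with library size alone (adjusted p = 0.276), germline scaling (0.098), no filter (0.0849), an offset for effective length (0.052) and the replicate block (0.0514), and on the TPM scale the value was 0.14 (0.227). mRpL42 fell 1.47-fold (adjusted p = 0.0411), and mRpS14 was 1.41-fold lower without passing (adjusted p = 0.0640). Of the low genes, mRpL41 fell 1.86-fold, mRpL43 1.86-fold and mRpL48 1.50-fold, with adjusted p of 0.0348, 0.0251 and 0.0459. The calls of mRpL42 and mRpL48 were lost with library size alone (adjusted p = 0.118 and 0.12), germline scaling (0.0627 and 0.0640), no filter (0.0592 and 0.0701) and TPM (0.798 and 0.830), and that of mRpL48 also without control 1 (0.0552) or control 2 (0.0601). That of mRpL41 was lost with library size alone (0.0502), TPM (0.0816) and without control 1 (0.0534), and that of mRpL43 with TPM (0.0592). In the order of mean TPM among the 71 genes, mRpL2 stood at rank 33 in the controls and at rank 67 under knockdown, and mRpL53 at rank 30 and at rank 7.

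**Figure D3:**
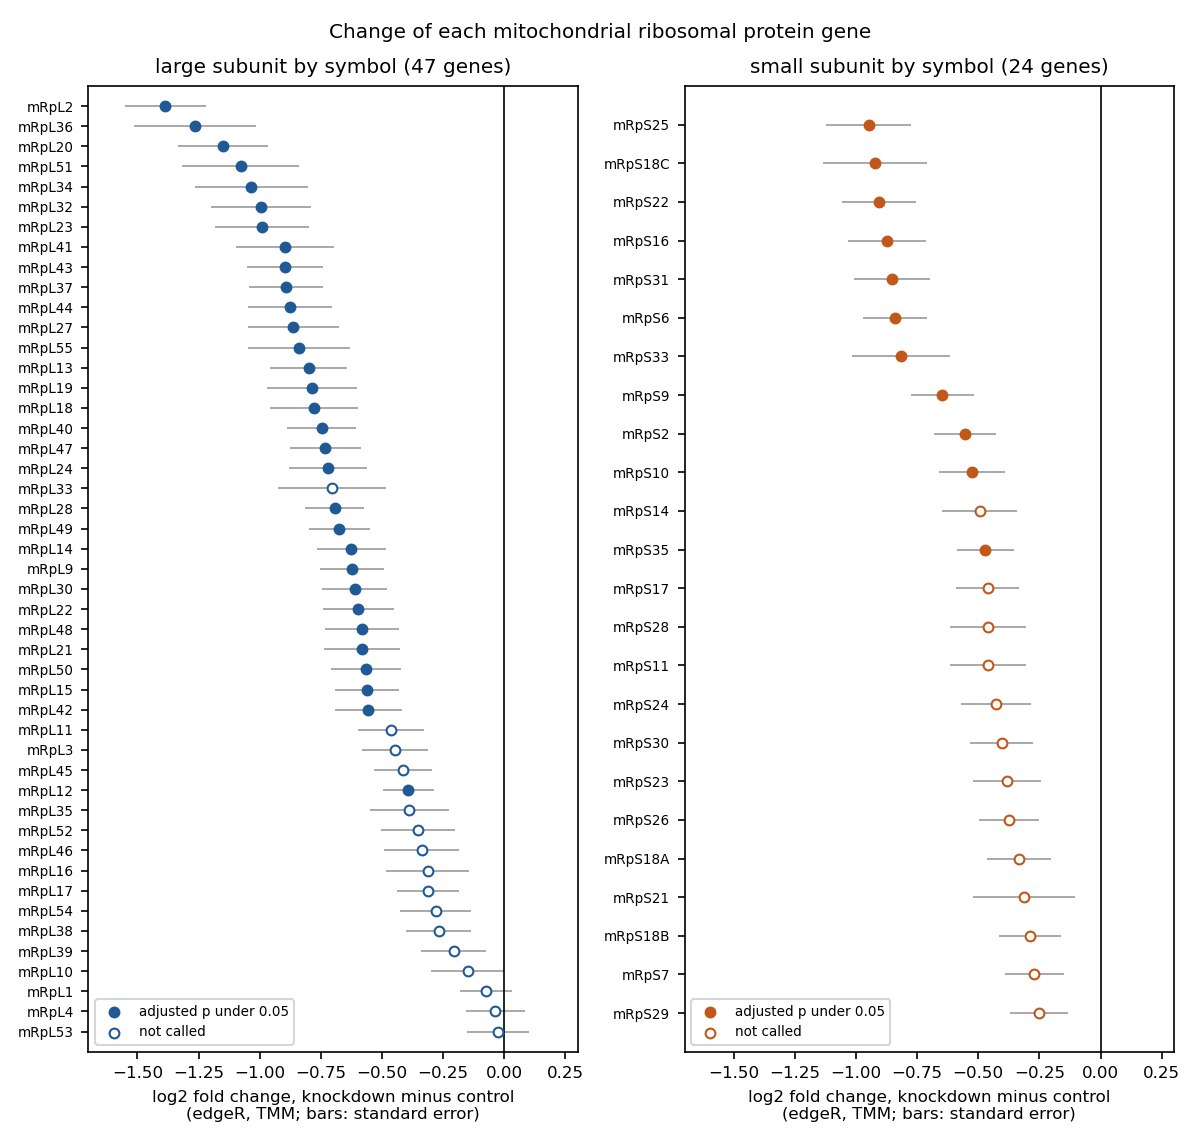
Log2 fold change of each gene (horizontal, knockdown minus control, edgeR with TMM scaling) with bars for the standard error, ordered within the large subunit (left) and the small subunit (right) as given by symbol. Filled points passed an adjusted p of 0.05; the values run from -1.39 for mRpL2 to -0.03 for mRpL53, and all lie below 0 with this scaling, while 30 of the 71 do not on the TPM scale.

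Because 2 genes of one library share its scaling, their ratio does not depend on how libraries were scaled. The ratio of mRpL2 to mRpL53, the ends of the order, was 1.05 and 0.923 in TPM in the controls, and 0.358 and 0.414 under knockdown. For mRpL36 and mRpL1 it was 1.61 and 1.00 in the controls, and 0.571 and 0.568 under knockdown. The pairs were picked for their change, so these ratios describe it and are no test. They show by how much the mRNAs of one ribosome moved apart: 2.57-fold between the extreme genes.

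The genes were grouped by place in the ribosome, assigned here from what is known in bacteria and mammals, each in a single class. These classes need not be complete: mRpL47 was counted with other large-subunit proteins, and mRpS24 with other small-subunit ones. Each neighbourhood held genes that fell and genes that did not pass. Of 5 genes of the peptidyl transferase core, 2 fell, mRpL2 and mRpL27 (1.82-fold, adjusted p = 0.0328), while mRpL3 (-0.45, adjusted p = 0.0594), mRpL16 (-0.31, adjusted p = 0.198) and mRpL4 did not pass. Of 5 genes classed around the exit tunnel 3 fell, with a median of -0.60. There mRpL45, which in mammals anchors the ribosome to the inner membrane, did not pass (-0.41, adjusted p = 0.0539). Of the 4 stalk proteins only mRpL12 passed, with a median of -0.27 over mRpL1, mRpL10, mRpL11 and mRpL12, the smallest of the neighbourhoods. In the central protuberance 3 of 8 passed (median -0.49), and of 27 other large-subunit proteins, which include mRpS18A and mRpS30, 22 fell (median -0.69). TPM-scale medians were 0.084 (core), -0.062 (tunnel), 0.26 (stalks), 0.057 (protuberance) and -0.16 (other large-subunit proteins).

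In the small subunit 5 of 8 genes classed to the head, 2 of 5 to the platform and 3 of 7 to the body fell. Their medians were -0.51, -0.46 and -0.46. On the TPM scale these medians were 0.0016, 0.076 and 0.068. mRpS29, a GTP-binding protein known in mammals as DAP3, and mRpS7, both of the head, were at -0.25 (adjusted p = 0.152) and -0.27 (adjusted p = 0.133). The counts are small and no neighbourhood was tested against another.

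By symbol, 31 of 47 large-subunit genes and 11 of 24 small-subunit genes fell, where 16.1% of all tested genes fell. Their medians were -0.62 and -0.47. On the TPM scale these medians were -0.086 and 0.063, with 5 and 2 called lower and 3 and 0 higher. On that scale 7.55% of all tested genes were called lower and 50.1% higher. The proteins of mRpS18A and mRpS30 sit in the large subunit in mammals despite their names, and neither gene passed (-0.33 and -0.40, adjusted p = 0.104 and 0.0677). Summed TPM of the mRpL genes over that of the mRpS genes was 2.00 and 1.96 in the controls, and 1.87 and 1.93 under knockdown. Of 44 genes with a bacterial counterpart 26 fell (median -0.59, and -0.056 on the TPM scale). Of 26 mitochondria-specific genes 15 fell (median -0.56, and -0.031 on the TPM scale), with mRpL55 not classed (1.79-fold lower, adjusted p = 0.0426). All 71 fitted values were below 0, so the median on each chromosome arm had to be. These medians ran from -0.51 on 2R (12 genes) to -0.65 on 3R (21 genes), and on the TPM scale from 0.019 to -0.11. Differences between these groups of genes were not tested.

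The genes are short, and short genes as a whole were lower in the knockdown libraries. Over all tested genes, 32.3% fell when the effective length implied by count and TPM was up to 250 nt, 29.2% from there to 500 nt, 17.0% to 1000 nt and 13.8% to 2000 nt. In the same classes 6 of 9, 19 of 28, 13 of 26 and 4 of 8 mitochondrial ribosomal protein genes fell, with medians of -0.81, -0.62, -0.46 and -0.53, against -0.53, -0.38, -0.06 and 0.08 for all tested genes. The part of length in the result was not tested beyond these values.

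The median stayed below 0 under each way of scaling tried, and its size changed. The median of the 71 genes was -0.68 with upper-quartile scaling, -0.47 when libraries were scaled to 21 germline genes, -0.35 with library size alone and -0.04 with limma-trend on log2(TPM + 1). The median of all tested genes moved with it, to -0.08, 0.13, 0.25 and 0.50. Relative to that median the median of the 71 genes was at -0.60, -0.60, -0.60 and -0.54, and in each of these fits all 71 lay below it. On the TPM scale mRpL53 and the median of all tested genes were both 0.50 after rounding. With DESeq2 and without a filter, 69 of the 71 lay below the median of all tested genes.

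In TPM itself 31 genes were lower and 22 higher in both knockdown libraries than in both controls, and 18 overlapped, where 17.2% of all tested genes were lower and 66.1% higher. limma-trend called 7 lower (mRpL2, mRpL36, mRpL20, mRpL34, mRpL23, mRpS16 and mRpS6), against 7.55% of all tested genes. It called 3 higher (mRpL1, mRpL4 and mRpL53), against 50.1%. Their log2 values on that scale were 0.45, 0.49 and 0.50, where the median of all tested genes was 0.50. Together the 71 genes took 0.713% and 0.640% of all TPM in the controls, and 0.643% and 0.648% under knockdown. These values overlap. Of all counts they took 0.368% and 0.323% in the controls, and 0.277% and 0.276% under knockdown.

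Counts of calls moved with the setting, as did those of all tested genes. Library size alone gave 21 lower (11.8% of all tested genes lower, 29.3% higher) and germline scaling gave 31 (14.1% and 21.0%). Without a filter 31 fell (9.97% and 8.21%), and with an offset for effective length 41 did (14.5% and 11.2%). Median-ratio, upper-quartile and TMM scaling without ribosomal protein, eggshell, yolk and mitochondrial genome genes called 43 (16.5% and 12.2%), 50 (19.2% and 11.0%) and 43 (16.4% and 11.3%) lower. The replicate number as a block gave 45 (21.4% and 20.8%). Without control 1 there were 35 (14.6% each way), and without control 2 there were 54 (21.7% and 27.5%). None of these settings called a mitochondrial ribosomal protein gene higher.

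**Figure D4:**
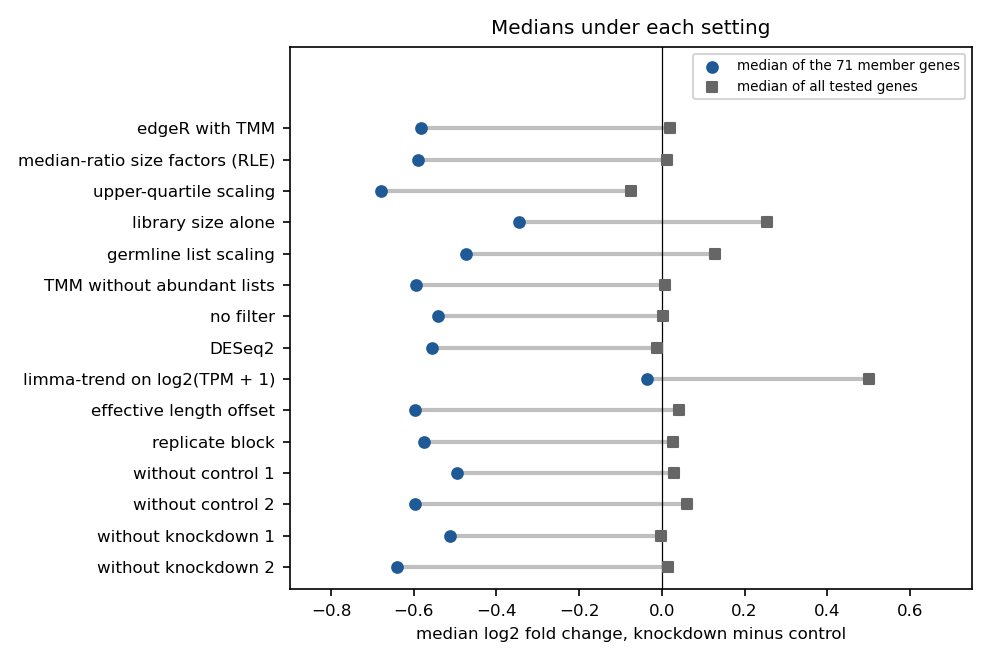
Median log2 fold change (horizontal, knockdown minus control) of the 71 genes and of all tested genes under each setting (vertical), with a line joining both. The median of the 71 genes lies between -0.68 and -0.04 and below that of all tested genes in every setting shown.

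Other genes of mitochondrial translation were measured beside them. Of 9 mitochondrial translation factors 3 fell (33.3%, where 16.1% of all tested genes fell) and 0 rose. All 9 fitted values were below 0, with a median of -0.31 that was 0.22 on the TPM scale. The elongation factor gene mEFTu1 fell 2.31-fold, from 421 and 297 CPM to 150 and 162 CPM (adjusted p = 0.0239), and the initiation factor gene mIF2 1.72-fold, from 36.3 and 31.2 CPM to 19.5 and 19.7 CPM (adjusted p = 0.0276). CG4882 also fell, by 0.56 on the log2 scale (adjusted p = 0.0344), and mEFTu2 did not pass (-0.46, adjusted p = 0.0612). Of the pair of mitoribosomal proteins with other names, bonsai, which encodes the S15 protein, fell 1.46-fold (64.7 and 57.4 CPM to 38.5 and 45.0 CPM, adjusted p = 0.0491). The gene tko, which encodes the S12 protein of the decoding centre and whose mutants are sensitive to mechanical shock, was at 52.1 and 42.6 CPM against 32.0 and 34.9 CPM without passing (-0.50, adjusted p = 0.0641).

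The 14 mitochondrial tRNA synthetase genes, which charge the tRNAs used by this ribosome, held 2 that fell (14.3%, where 16.1% of all tested genes fell) and 1 that rose (where 11.8% rose), so these counts are near the background. Their median was -0.10, and 0.39 on the TPM scale. CysRS-m fell 2.18-fold (from about the same level in both controls, 32.5 CPM, to 14.0 and 15.8 CPM, adjusted p = 0.0218) and TyrRS-m 1.63-fold (adjusted p = 0.0310). ValRS-m rose by 0.56 on the log2 scale, from 17.2 and 19.3 CPM to 27.1 and 26.8 CPM (adjusted p = 0.0465), and AspRS-m was at 0.37 (adjusted p = 0.0732). Of 12 genes for transcription of the mitochondrial genome and care of its transcripts, 3 fell and 1 rose (median -0.40, 0.13 on the TPM scale). Lrpprc2, of a family that binds mitochondrial RNA, fell 2.43-fold, from 154 and 126 CPM to 57.2 and 58.1 CPM (adjusted p = 0.0217), rswl by 0.68 on the log2 scale (adjusted p = 0.0348) and the RNA polymerase gene PolrMT 1.52-fold (adjusted p = 0.0289). mTerf5 rose by 0.49 on the log2 scale (adjusted p = 0.0456).

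Cytosolic ribosomal protein genes and nuclear respiratory chain genes can be set beside them. Of 84 cytosolic genes tested 81 fell and 0 rose (median -1.08, and -0.54 on the TPM scale); RpL28 fell 2.94-fold, RpS10a 10.7-fold, RpL22 3.49-fold and RpL10Ab 2.94-fold. Of 66 respiratory chain genes 49 fell and 0 rose (median -0.70, and -0.16 on the TPM scale), among them COX8 (2.52-fold), ND-39 (2.00-fold), COX7C (1.89-fold) and ND-AGGG (1.86-fold). Another 4 cytosolic and 22 respiratory chain genes had too few counts to be tested. The difference between lists was not tested. Summed TPM of the cytosolic genes over that of the mitochondrial ones was 60.1 and 57.0 in the controls, and 42.4 and 41.5 under knockdown, so that the groups did not overlap in this ratio, which does not depend on the scaling of libraries.

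**Figure D5:**
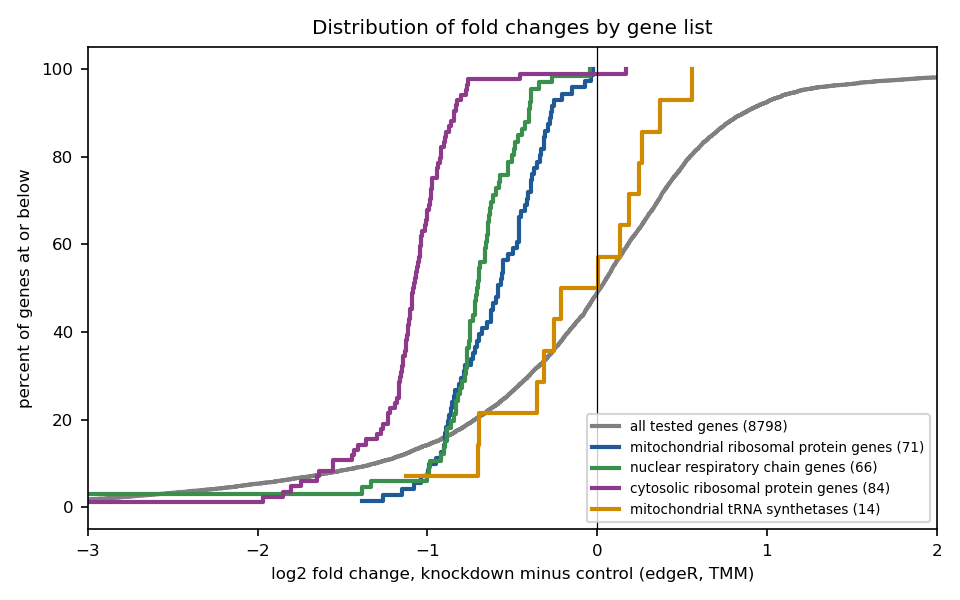
Percent of genes (vertical) with a log2 fold change at or below the value on the horizontal axis, for all tested genes and for 4 lists, each with its number of genes. The curve of the 71 mitochondrial ribosomal protein genes lies left of that of all tested genes over most of its range, near that of respiratory chain genes and right of that of cytosolic ribosomal protein genes, whose medians are -0.70 and -1.08.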

How the data were processed

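The deposited gene tables hold expected counts (reads per gene as estimated, not normalized), TPM and gene lengths per library. The tools Salmon, HISAT2, HTSeq and DESeq2 and the builds dm3 and BDGP5 are listed per the submitters' processing notes; roles and versions are not given in the sources used here. Symbols were matched by FlyBase ID for 13484 of 13776 genes; all 71 members were placed on an arm from a Release 6 table, used for arms only. The deposited effective length linked count and TPM within 1% in every library for 53 of the 71; for length classes it was recomputed from the deposited TPM and counts; the classes were added after the data were seen. Counts were whole numbers in all libraries for 41 of the 71, and for the others reads may be shared with overlapping genes or copies.

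Expected counts were rounded and analysed in R 4.3.3 with edgeR 4.0.16: filterByExpr (8798 genes kept), TMM (factors 0.922, 0.922, 1.11 and 1.06), and the quasi-likelihood test on 2 against 2 libraries with no block, with Benjamini-Hochberg adjustment over all tested genes (biological coefficient of variation 0.245, 2 residual degrees of freedom). The script was tested on simulated data with less spread than these libraries and no built-in difference in composition. That run checks the code and gives no error rates for these data. The SE is the absolute log2 fold change over the square root of F. DESeq2 1.42.0 and limma 3.58.1 (limma-trend on log2(TPM + 1)) served as alternatives. With 2 libraries a group an exact permutation test cannot go below p = 0.333, so none is given for sums. The labels call the libraries biological replicates without saying that they came from separate crosses, so p-values measure the spread between these samples.

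Members and lists were chosen with earlier results of these data known. The rule for named members took the 5 highest and 5 lowest in TPM, the 10 largest falls, the 4 smallest changes and the 3 widest ratios within each group, and up to 4 genes with the smallest adjusted p of each list; any further member was picked with its values known. The HP1 domain list and DamID samples were not used here.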

Additional observations from a re-analysis of the deposited data

How the results depend on the processing

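Over the 14 alternatives, the median of the members stayed below 0 in all, and 0 members were called higher except with limma-trend on log2(TPM + 1). That fit called 7 lower and 3 higher, with 41 negative values and a median of -0.036. With library size alone 21 were called lower (median -0.35), and all 21 were among the 42. Without one library in turn, the number called lower ran from 0 to 54, the median from -0.64 to -0.50, and the number of negative values from 70 to 71; without control 1 it was 35 and without control 2 it was 54. The log2 ratio of the members' share of the library, knockdown to control, was -0.32 in counts and -0.067 in TPM. Values changed sign in several settings, and most widely on the TPM scale, where only 41 stayed negative. Those of mRpL12, mRpS10 and mRpS35, which had been called lower (-0.39, -0.53 and -0.47), turned to 0.14, 0.0052 and 0.058 there. Others that turned had not been called, such as mRpL11 (-0.46 to 0.065) and mRpS17 (-0.46 to 0.068). With library size alone mRpL1, mRpL10, mRpL4 and mRpL53 were at 0.16, 0.084, 0.20 and 0.21; with germline scaling mRpL1, mRpL4 and mRpL53 at 0.035, 0.074 and 0.084; without a filter mRpL4 and mRpL53 at 0.0037 and 0.014. With limma-trend on TPM mRpL1, mRpL10, mRpL12, mRpL4 and mRpL53 were at 0.45, 0.38, 0.14, 0.49 and 0.50. With a library left out mRpL53 was at 0.054 and 0.024 (without control 1 and without knockdown 2), and mRpL10 at 0.0028 (without control 2); over the libraries left out mRpL53 ran from -0.055 to 0.054 and mRpL10 from -0.25 to 0.0028. The cause was not tested. With the replicate number as a block, 45 were called lower, 41 of them among the 42, at a median of -0.58; libraries with the same number deviated together (r = 0.503 across genes), but with 2 numbers and no label that ties them they share only a number. Depth is lowest for mRpL34, mRpL33 and mRpS33, with 137, 175 and 178 counts in knockdown 1.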

Other observations

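Genes that copy the mitochondrial genome were measured beside those that translate it. Of 4 such genes 2 fell and 0 rose, where 16.1% of all tested genes fell and 11.8% rose. Their median log2 fold change was -0.30, and 0.22 on the TPM scale. PolG2, the accessory subunit of the mitochondrial DNA polymerase, fell 1.80-fold, from 33.8 and 27.4 CPM to 16.6 and 17.4 CPM (edgeR adjusted p = 0.0292). The single-strand binding protein gene mtSSB fell 1.44-fold, from 118 and 126 CPM to 79.2 and 91.2 CPM (adjusted p = 0.0390). The catalytic subunit PolG1 (58.8 and 52.1 CPM against 51.5 and 54.0 CPM) and mtDNA-helicase (35.7 and 39.5 CPM against 37.3 and 38.6 CPM) overlapped between groups and did not pass (adjusted p = 0.697 and 0.938).

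The mRNAs that these ribosomes read come from the mitochondrial genome. Of 13 such transcripts 3 fell (23.1%, where 16.1% of all tested genes fell) and 0 rose (where 11.8% rose). Their median was -0.37, and 0.14 on the TPM scale. mt:CoII fell 1.77-fold (411 and 421 CPM to 226 and 243 CPM, adjusted p = 0.0219), mt:ND4 1.81-fold (adjusted p = 0.0294) and mt:ND2 1.67-fold (adjusted p = 0.0441). mt:CoI did not pass (-0.46, adjusted p = 0.0594). The transcripts of mt:ATPase6 and mt:ATPase8, which overlap on one mRNA, were higher in both knockdown libraries than in both controls without passing (85.9 and 73.2 CPM against 120 and 96.8 CPM, and 2.79 and 2.33 CPM against 4.45 and 4.05 CPM; adjusted p = 0.0836 and 0.156). On the TPM scale both passed (limma adjusted p = 0.0096 and 0.0095), where 50.1% of all tested genes were called higher. Without knowledge of how counting treats strand and overlap, their counts cannot be told apart with certainty.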
